A study of Mus musculus with 4 samples.

Results

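The cells described here are the *Sprr1a*+ neurons of dorsal root ganglia (DRGs) of mice with a sham operation, set against those of mice whose sciatic nerve was loosely tied, a model called chronic constriction injury (CCI). A neuron was a cell with at least 1500 genes, at least 5000 UMIs (unique molecular identifiers, each counting 1 captured mRNA molecule), at most 10% mitochondrial UMIs, and less than 100 *Apoe* UMIs per 10000 UMIs of the cell (CP10K). *Apoe* is a transcript of satellite glial cells, which wrap the neuron. The *Sprr1a*+ neurons were selected on their own measured *Sprr1a* UMIs: a neuron was *Sprr1a*+ when *Sprr1a* exceeded 1.718 CP10K, which is 1 on the natural-log scale of the normalized value. This rule found 4141 *Sprr1a*+ neurons among 16997 neurons and 23691 cells. Of these, 71 came from Male-Sham, 230 from Female-Sham, 1739 from Male-CCI, and 2101 from Female-CCI.

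All 4 groups were heterozygous *Pirt*-EGFPf knock-in mice on the C57BL/6 background, in which EGFPf replaced the *Pirt* reading frame, and GFP+ cells were sorted from L4-5 DRGs 7 days after bilateral CCI or sham surgery at 7 to 8 weeks of age. The *Pirt* promoter drives EGFPf in most DRG neurons, so that neurons without *Pirt*, many of them of large diameter, are underrepresented, and 1 *Pirt* allele is missing in every group. Each group is 1 library from 20 DRGs of 5 mice, so each surgery has 2 replicates, 1 library per sex, and no value covers the spread between animals. Since brothers and sisters of a litter got the same operation, litter and surgery cannot be told apart.

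*Sprr1a* encodes a small proline-rich protein that is nearly silent in intact sensory neurons and is switched on when their axon is damaged, where it promotes axon outgrowth. It belongs to the regeneration-associated program that starts with transcription factors such as ATF3, JUN, and SOX11 and goes on to growth cone proteins, neuropeptides, and secreted signals. Damaged neurons are also known to lose the channels, receptors, and peptides by which classes of sensory neurons are told apart. The question here is how the few neurons that carry *Sprr1a* without the constriction compare with those that carry it after CCI.

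*Sprr1a* chose the cells, so its level is given as a description. The median CP10K was 18.1 for Male-Sham and 20.9 for Female-Sham, against 32.7 for Male-CCI and 25.2 for Female-CCI. In counts, a positive cell of sham held a median of 98 *Sprr1a* UMIs in Male-Sham and 80 in Female-Sham. The 5 positive cells nearest to the limit lay between 1.72 and 2.17 CP10K in Male-Sham and between 1.83 and 1.94 in Female-Sham, and the 5 nearest below it between 0.870 and 1.51 and between 1.29 and 1.66. In CCI the 5 cells just inside lay between 1.72 and 1.84 (Male-CCI) and between 1.72 and 1.77 (Female-CCI), and those just outside between 1.64 and 1.70 and between 1.65 and 1.72.

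**Figure D1:**
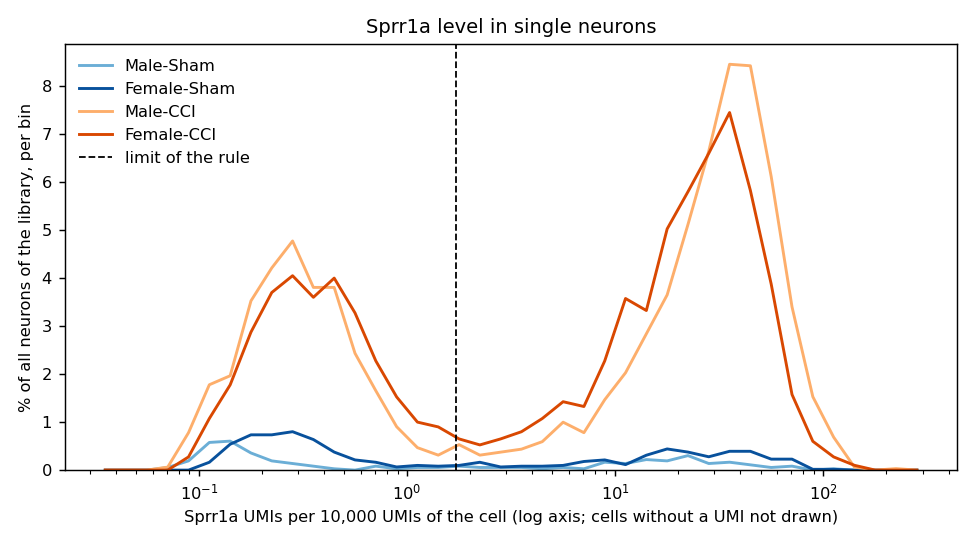
Distribution of *Sprr1a* UMIs per 10000 UMIs of the cell (log axis) over the neurons of each library, in % of all its neurons per bin, with the limit of the rule as a dashed line. In all 4 libraries the positive cells form a peak of their own to the right of the limit, small in sham and large in CCI, and the cells without a *Sprr1a* UMI are not drawn.

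*Sprr1a*+ neurons made up 1.95% of the neurons of Male-Sham (95% Clopper-Pearson interval 1.52 to 2.45) and 3.75% of those of Female-Sham (3.29 to 4.26), intervals that cover counting error only. They were 54.2% of the neurons of Male-CCI and 52.4% of those of Female-CCI. With each cell thinned to 5000 UMIs, a *Sprr1a* UMI was found in 2.30%, 4.31%, 58.8%, and 57.7% of neurons, in the same order. For the background of free RNA, cells above the *Apoe* limit, which should lack the gene, exceeded the *Sprr1a* limit in 0.292% of 343 cells (Male-Sham), 0.496% of 403 (Female-Sham), 17.6% of 188 (Male-CCI), and 13.9% of 201 (Female-CCI). In every library the share of neurons lay above that of the *Apoe*-high cells. These shares rest on the level that chose the cells and are given without a test.

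The summed *Sprr1a*+ neurons held 4644481 (Male-Sham) and 9632218 UMIs (Female-Sham), against 105093832 (Male-CCI) and 98283529 (Female-CCI), so the sham values carry the larger counting error. Their median depth was 68983, 44693.5, 60646, and 46794 UMIs per cell. Likely doublets, droplets with more than 1 cell, were unequal: among the highest Scrublet scores, taken in the number the study removed from each library, were 29 of 71 *Sprr1a*+ neurons of Male-Sham (40.8%), 86 of 230 of Female-Sham (37.4%), 17.0% of Male-CCI, and 17.5% of Female-CCI. Of the *Sprr1a*- neurons 8.56% to 16.0% were among them. The cells were kept, as the rule states, and values without them are given beside several results. Pairs of libraries shared 215 to 513 cell barcodes, and 6, 1, 129, and 15 *Sprr1a*+ neurons, in the order above, had a barcode also listed in a library of the other surgery.

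The label of injured neurons was checked with *Atf3*, a transcription factor gene switched on by axonal damage, which the rule did not use but which was measured in the same cells. Normalized *Atf3* exceeded 1 in 93.0% of the *Sprr1a*+ neurons of Male-Sham, 91.7% of Female-Sham, 98.8% of Male-CCI, and 98.9% of Female-CCI. In *Sprr1a*- neurons of the same libraries it did so in 26.3%, 28.7%, 32.8%, and 36.0%. Thinned to 5000 UMIs, 91.5%, 92.2%, 97.2%, and 97.5% of the *Sprr1a*+ neurons still had an *Atf3* UMI, and 31.8% to 43.8% of the *Sprr1a*- neurons. Of the 7 pan-neuronal genes 0 were called different between CCI and sham *Sprr1a*+ neurons by edgeR, whose test is described with the comparison of surgeries, 2 had an unadjusted p under 0.05, and DESeq2 called 0. With the likely doublets left out 1 of them, *Rbfox3*, was called higher in CCI (log2 0.60). The intermediate filament gene *Prph*, for example, stood at 3172 and 3105 CPM (UMIs per 1000000 UMIs of the summed cells) in Male-Sham and Female-Sham and at 3175 and 3148 CPM in Male-CCI and Female-CCI.

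The sham *Sprr1a*+ cells also carried more of the injury genes and fewer of the class markers than the *Sprr1a*- neurons. Of 66 injury genes (transcription factors, growth cone and cytoskeleton, neuropeptides and secreted signals, surface and adaptor genes), a *Sprr1a*+ neuron thinned to 5000 UMIs had a UMI of 27 genes (Male-Sham) or 28 (Female-Sham) at the median, and of 31 in either CCI library. A *Sprr1a*- neuron had 16, 17, 18, and 19. More injury genes than in 95% of the *Sprr1a*- neurons of the same library were found in 85.9% of the *Sprr1a*+ neurons of Male-Sham, 81.7% of Female-Sham, 85.7% of Male-CCI, and 79.4% of Female-CCI. Of 35 markers of sensory neuron classes the median was 6, 5, 5, and 5 in *Sprr1a*+ and 8 in the *Sprr1a*- neurons of each library. With the likely doublets left out, *Sprr1a*+ neurons had a median of 29, 30, 31, and 31 injury genes and of 5, 4, 5, and 5 class markers. The rule drew these cells apart, so no test is given.

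**Figure D2:**
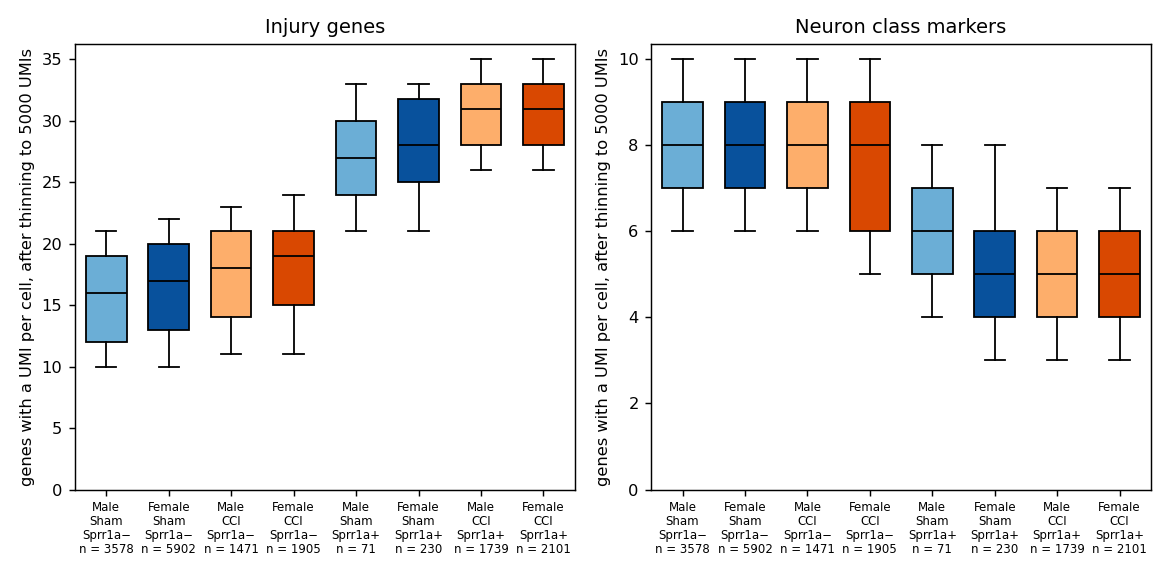
Injury genes (left, of 66) and neuron class markers (right, of 35) with a UMI per cell after thinning to 5000 UMIs, for *Sprr1a*- and *Sprr1a*+ neurons of each library, with the median, the quartiles as the box, and the 10th and 90th percentiles as whiskers. The *Sprr1a*+ neurons of sham (medians 27 and 28 injury genes) lie far above the *Sprr1a*- neurons (16 to 19) and a little below those of CCI (31).

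At the level of summed counts, 53 of the 65 injury genes tested were higher in the *Sprr1a*+ than in the *Sprr1a*- neurons of both sham libraries, and 55 in both CCI libraries. Of all 15361 genes this held for 4464 in sham and 5182 in CCI. At least 5 times the *Sprr1a*- level was reached by 32 of the 65 injury genes in sham and by 29 in CCI. How many of all genes reached it was not counted, so these counts have no share over all genes beside them. The median log2 ratio of *Sprr1a*+ to *Sprr1a*- neurons over the injury genes was 1.61 in sham and 1.62 in CCI. Over all genes tested it was -0.103 in sham and -0.0929 in CCI. The largest ratios in sham belonged to *Crh*, *Tgfbi*, *Anxa1*, *Fgf3*, and *Cryba2*, all nearly absent from *Sprr1a*- neurons there. *Fgf3*, a fibroblast growth factor gene, stood at 50.6 and 53.6 CPM in the *Sprr1a*+ neurons of Male-Sham and Female-Sham and at 0.261 and 0.449 CPM in their *Sprr1a*- neurons. *Tgfbi*, whose product is a secreted matrix protein, stood at 68.3 and 68.6 CPM against 0.120 and 0.185 CPM.

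Between surgeries, UMI counts were summed over the *Sprr1a*+ neurons of each library and tested with edgeR's robust quasi-likelihood test. A gene was called at a Benjamini-Hochberg adjusted p under 0.05 over all genes and an absolute log2 fold change over 0.5, and SE is the standard error of that log2 fold change. Of 15361 genes, 850 were called higher in CCI than in sham (5.53%) and 642 lower (4.18%), together 9.71%. Both CCI libraries lay above both sham libraries for 4893 genes (31.9%) and below them for 4585 (29.8%). Of the 65 injury genes tested, 18 were called higher (5.53% of all genes were), 6 lower (4.18% of all), and 41 neither. Their median log2 fold change was 0.28, against 0.01 over all genes tested. With the likely doublets left out the injury genes gave 15 higher and 7 lower. At an unadjusted p under 0.05, 37 were higher and 8 lower, while 5099 of all 15361 genes had such a p. For 34 of the 65 the log2 fold change lay between -0.5 and 0.5.

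Among the injury transcription factors 4 of 9 rose and 0 fell (by DESeq2 also 4 and 0, and 0 were lower at an unadjusted p under 0.05). *Atf3* itself differed little: it stood at 1032 and 959 CPM in Male-Sham and Female-Sham and at 1146 and 1184 CPM in Male-CCI and Female-CCI. The CCI libraries were both the higher ones, yet the log2 fold change of 0.24 (SE 0.0664, edgeR's adjusted p = 0.0299) was below the limit of a call. This order did not hold with the likely doublets left out (1319 and 1196 CPM in sham, 1189 and 1249 CPM in CCI), and with 2 times as many left out both sham libraries were the higher ones (1529 and 1317 against 1211 and 1287 CPM). *Jun*, its partner in the AP-1 complex, had 470.5 and 428 CPM in sham and 604 and 564 CPM in CCI (log2 0.39), also under the limit. *Sox11*, a factor of axon regrowth, had the largest difference of the list in CPM among those called: 438 and 460.4 CPM in sham against 889 and 875 CPM in CCI, 1.97-fold (log2 0.98, SE 0.0698, edgeR's adjusted p = 1.47e-05). In *Sprr1a*- neurons of sham it stood at only 38.9 and 45.6 CPM. *Klf6*, a growth-promoting zinc finger factor, rose 1.58-fold, from 196 and 176 to 291 and 292 CPM. *Smad1*, which carries BMP signals, rose 1.66-fold, from 129 and 109 to 198 and 192 CPM. *Cebpd* rose 1.83-fold, from 12.7 and 20.9 to 29.9 and 35.3 CPM, but unlike the others was not higher in the *Sprr1a*+ than in the *Sprr1a*- neurons of sham, which had 24.5 and 37.5 CPM. Without the likely doublets *Sox11* kept its call (log2 0.68), and *Klf6* had a log2 fold change of 0.43, under the limit.

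Of the growth cone and cytoskeleton genes 3 of 18 rose and 0 fell (by DESeq2 also 3 and 0, and 0 were lower at an unadjusted p under 0.05). *Gap43*, the main growth cone phosphoprotein gene, stood at 2171 and 1907 CPM in sham and at 3109 and 3078 CPM in CCI, 1.53-fold higher (log2 0.61, SE 0.0684, edgeR's adjusted p = 0.000233). *Chl1*, a cell adhesion gene of growing neurites, rose from 175 and 191 to 382 and 339 CPM, 1.97-fold. The tubulin gene *Tubb6* rose 1.67-fold, from 75.4 and 65.9 to 123 and 110.4 CPM. The other 15 were not called: *Tubb3* had 5906 and 5627 CPM in sham and 6057 and 5682 CPM in CCI, *Stmn4*, a microtubule regulator gene, 574 and 569.5 against 508 and 541 CPM, and *Flnc*, which encodes a filamin, 61.1 and 63.3 against 63.3 and 59.7 CPM. With the likely doublets left out *Stmn4* had 741 and 702 against 526 and 575 CPM and *Flnc* 97.2 and 89.6 against 68.5 and 66.4 CPM, both uncalled (log2 -0.40 and -0.47), and with 2 times as many left out both were called lower (log2 -0.51 and -0.82). Set beside them, the *Sprr1a*- neurons of sham had 56.1 and 69.9 CPM of *Stmn4* and 1.96 and 1.98 CPM of *Flnc*. *Tubb6* was no longer past the limit without the likely doublets (log2 0.49).

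**Figure D3:**
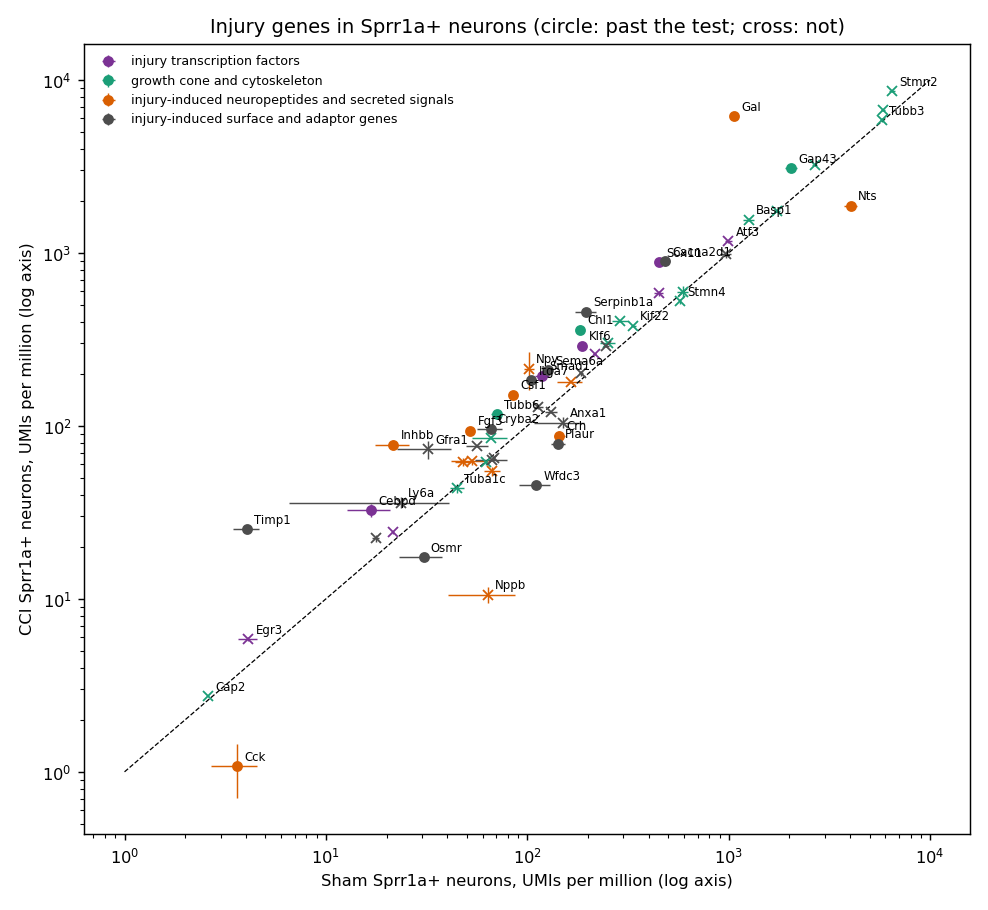
The 61 injury genes with a mean of at least 1 CPM in both surgeries, each by its mean over the 2 sham libraries (x) and the 2 CCI libraries (y) in *Sprr1a*+ neurons, in CPM on log axes, with bars from the lower to the higher library and a dashed line of equality. Circles passed the test and crosses did not; 17 circles lie above the line, *Gal* farthest among the abundant genes, and 6 below it, *Nts* the most abundant of them.

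Neuropeptides and secreted signals gave 5 higher and 3 lower of 17, *Gal* and *Nts* with the largest differences in CPM among the called injury genes. *Gal* encodes galanin, a neuropeptide that sensory neurons produce after axotomy. It stood at 1090 CPM in Male-Sham and 1032 in Female-Sham, and at 5943 in Male-CCI and 6430 in Female-CCI. Both CCI libraries were far above both sham libraries, 5.86-fold (log2 2.55, SE 0.0691, edgeR's adjusted p = 2.05e-08). *Gal* of the *Sprr1a*+ sham neurons was 3.06 times that of the *Sprr1a*- sham neurons (332 and 362 CPM), and in CCI the ratio was 10.9. Without the likely doublets *Gal* had 1173, 726, 6120, and 6576 CPM (log2 2.74, edgeR's adjusted p = 0.0316), and with 2 times as many doublets left out, which left 18 cells of Male-Sham, a log2 fold change of 2.63 with an adjusted p of 0.135.

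*Nts* encodes neurotensin, a peptide and a marker of the NP1 class of itch-related neurons. It went the other way: Male-Sham had 4319 and Female-Sham 3736 CPM, while Male-CCI had 1812 and Female-CCI 1934 CPM. The sham libraries were both above the CCI libraries, 2.14-fold (log2 -1.10, SE 0.0747, edgeR's adjusted p = 1.17e-05), and stayed so without the likely doublets (4894 and 4774 against 1886 and 2059 CPM). *Sprr1a*- neurons had 42.5, 74.4, 198, and 183 CPM. In sham, *Nts* was thus 68.9 times as high in *Sprr1a*+ as in *Sprr1a*- neurons, and of the other 5 NP1 markers *Nppb*, *Il31ra*, and *Cysltr2* were 2.42, 2.19, and 1.34 times as high. *Sst* (3.01 and 0.623 against 26.9 and 19.1 CPM) and *Osmr* (37.9 and 23.2 against 44.8 and 35.0 CPM) were lower in *Sprr1a*+ neurons. With 2 times as many doublets left out, *Nppb* was at 1.80 and 5.06 CPM and *Il31ra* at 3.59 and 0.506 CPM in sham *Sprr1a*+ neurons.

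Cell by cell, most sham *Sprr1a*+ neurons held *Nts* and about as many held *Gal* as among *Sprr1a*- neurons. Normalized *Nts* exceeded 1 in 94.4% of the *Sprr1a*+ neurons of Male-Sham, 90.4% of Female-Sham, 77.7% of Male-CCI, and 74.6% of Female-CCI, against 2.71% to 6.40% of the *Sprr1a*- neurons. *Gal* exceeded 1 in 40.8%, 47.8%, 77.9%, and 81.3% of them, and in 38.8%, 43.8%, 42.4%, and 48.6% of the *Sprr1a*- neurons. Thinned to 5000 UMIs, a *Gal* UMI was found in 43.7%, 53.0%, 82.4%, and 85.2% and an *Nts* UMI in 94.4%, 89.6%, 79.6%, and 77.5% of *Sprr1a*+ neurons. *Nts* without *Gal* was the largest group in sham, 59.2% of Male-Sham (95% Clopper-Pearson interval 46.8 to 70.7) and 48.7% of Female-Sham (42.1 to 55.4), and 20.5% and 16.9% in CCI. These intervals cover counting error within a library only. *Gal* without *Nts* made up 5.63% and 6.09% in sham and 20.7% and 23.7% in CCI.

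**Figure D4:**
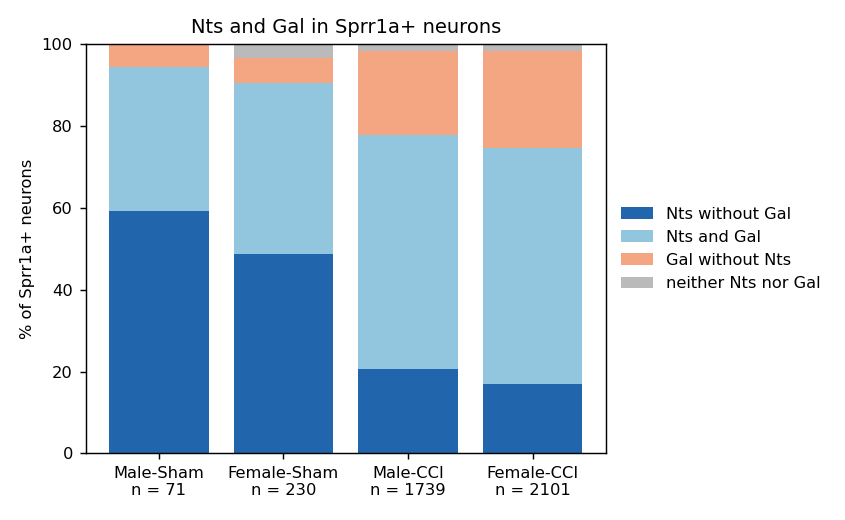
Share of the *Sprr1a*+ neurons of each library (bars, in %) with *Nts* alone, both peptides, *Gal* alone, or neither, each counted as present when its normalized value exceeded 1. *Nts* alone is 59.2% and 48.7% of the cells in sham and 20.5% and 16.9% in CCI, and *Gal* alone is 5.63% and 6.09% in sham and 20.7% and 23.7% in CCI.

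Within each library, *Gal* was lower where *Nts* was present. Mean *Gal* in *Nts*-positive *Sprr1a*+ neurons was 9.67 CP10K in Male-Sham, 8.77 for Female-Sham, 41.3 for Male-CCI, and 43.7 for Female-CCI. In the *Nts*-negative ones it was 35.0 (4 cells), 33.7 (22 cells), 109, and 126 CP10K. When only *Nts*-positive cells were summed, an alternative chosen after seeing the data, *Gal* still rose from 884 and 808 to 4477 and 4498 CPM (log2 2.41, edgeR's adjusted p = 9.50e-09), against a log2 fold change of 2.55 over all *Sprr1a*+ neurons.

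The promoters of *Sprr1a*, *Nts*, and *Gal* are shown because all 3 genes were higher in *Sprr1a*+ than in *Sprr1a*- neurons of every library, while *Nts* fell and *Gal* rose between surgeries. The sequences run from 250 bases before to 50 bases after the RefSeq start site (GRCm38.p6), on the gene's strand, and lie at chr3:92485832-92486131 (minus strand), chr10:102490369-102490668 (minus strand), and chr19:3414495-3414794 (minus strand). Capitals mark TGANTCA, the AP-1 motif, which reads alike on both strands and so was searched once.
Sprr1a: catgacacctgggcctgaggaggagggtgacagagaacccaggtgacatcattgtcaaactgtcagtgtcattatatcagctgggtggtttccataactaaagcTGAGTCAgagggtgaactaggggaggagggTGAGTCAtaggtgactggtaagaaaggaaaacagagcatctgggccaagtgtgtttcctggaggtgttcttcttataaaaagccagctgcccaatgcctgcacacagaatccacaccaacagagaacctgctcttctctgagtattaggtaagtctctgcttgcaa
Nts: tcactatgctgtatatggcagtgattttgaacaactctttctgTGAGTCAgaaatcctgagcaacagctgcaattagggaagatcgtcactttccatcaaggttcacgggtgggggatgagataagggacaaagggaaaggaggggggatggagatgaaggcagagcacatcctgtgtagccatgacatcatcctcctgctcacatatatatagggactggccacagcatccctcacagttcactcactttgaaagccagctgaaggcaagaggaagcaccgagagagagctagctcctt
Gal: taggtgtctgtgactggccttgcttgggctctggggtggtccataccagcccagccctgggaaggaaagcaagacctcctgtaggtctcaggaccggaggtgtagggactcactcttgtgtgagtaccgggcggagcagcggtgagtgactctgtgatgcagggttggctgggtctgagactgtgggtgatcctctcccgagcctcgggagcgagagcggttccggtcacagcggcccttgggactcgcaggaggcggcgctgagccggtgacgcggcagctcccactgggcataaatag
The window of *Sprr1a* holds the motif at 2 places and that of *Nts* at 1, both as TGAGTCA, and that of *Gal* does not hold these letters. Of 32851 promoters of the same length 7.81% hold it. The CRE motif TGACGTCA, found in 1.79% of promoters, is in none of the 3 windows.

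Other secreted signals that rose include *Inhbb*, a subunit gene of activins, from 17.4 and 25.7 to 73.5 and 82.3 CPM, 3.44-fold (log2 1.78, SE 0.143, edgeR's adjusted p = 0.000167). *Csf1*, the colony-stimulating factor by which injured neurons reach microglia, rose from 86.6 and 83.9 to 149 and 154 CPM, 1.78-fold. *Fgf3* rose from 50.6 and 53.6 to 90.8 and 96.9 CPM, 1.80-fold. Without the likely doublets *Csf1* (124, 109.7, 154, and 164 CPM, log2 0.44) and *Fgf3* (74.95, 70.5, 96.0, and 106 CPM, log2 0.47) kept both CCI libraries on top but fell short of the limit on fold. *Adm*, the adrenomedullin gene, was near the floor of detection, at 0.646 and 0.311 against 2.02 and 1.91 CPM.

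Other secreted signals fell. *Crh*, the corticotropin-releasing hormone gene, stood at 0.0707 and 0.181 CPM in the *Sprr1a*- neurons of sham, and in *Sprr1a*+ neurons at 135 and 153 CPM in sham and at 92.9 and 83.0 CPM in CCI (log2 -0.71, SE 0.0881, edgeR's adjusted p = 0.000403). *Ucn*, which encodes the related peptide urocortin, had 41.8, 64.0, 64.7, and 59.8 CPM in *Sprr1a*+ neurons and overlapped between surgeries. *Npy*, a neuropeptide gene of injured large neurons, had 107 and 96.3 CPM in sham and 267 and 161 CPM in CCI, and the spread between the CCI libraries left it uncalled (edgeR's adjusted p = 0.130). *Cck* was called lower, from 4.52 and 2.70 to 0.704 and 1.45 CPM.

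Surface and adaptor genes gave 6 higher and 3 lower of 21. *Timp1*, an inhibitor of matrix metalloproteinases, had the largest fold, from 3.44 and 4.67 to 24.1 and 26.3 CPM, 5.94-fold (log2 2.57, SE 0.153, edgeR's adjusted p = 4.84e-06). In sham its level in *Sprr1a*+ neurons was that of the *Sprr1a*- neurons (3.30 and 4.42 CPM). *Cacna2d1*, the calcium channel subunit bound by gabapentin, rose from 508 and 461 to 946 and 838 CPM, 1.85-fold, and *Serpinb1a*, a protease inhibitor gene, from 219 and 172 to 457 and 454 CPM, 2.36-fold. *Itga7*, a laminin-binding integrin, rose 1.75-fold, *Sema6a*, a semaphorin, 1.66-fold, and *Cryba2* 1.44-fold. Of these, *Itga7*, *Sema6a*, and *Cryba2* did not pass the limit on fold without the likely doublets (log2 0.46, 0.48, and 0.23).

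The genes that fell are *Plaur*, *Wfdc3*, and *Osmr*. *Plaur*, the urokinase receptor gene, had 153 and 131 CPM in sham and 79.5 and 78.6 CPM in CCI (log2 -0.83, SE 0.0783, edgeR's adjusted p = 8.56e-05), while *Sprr1a*- neurons of sham held 4.84 and 6.04 CPM. *Wfdc3* had 90.9 and 129.8 CPM in sham and 46.5 and 43.9 CPM in CCI, 2.48-fold lower. Both genes belong to the injury lists, and both were at the higher level in the *Sprr1a*+ neurons of sham. *Ecel1* (182 and 189 against 209 and 195 CPM), *Sdc1* (253 and 238 against 289.9 and 287 CPM), and *Tnfrsf12a* (119 and 108 against 133 and 126 CPM) were not called, each with a log2 fold change under 0.5.

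Of the genes of stress, DNA damage, and survival 0 of 15 were called higher (5.53% of all genes were). DESeq2 called 0 higher, and 2 were higher at an unadjusted p under 0.05, which 5099 of all 15361 genes had in either direction. Only *Hmox1* was called lower (4.18% of all genes were), from 13.3 and 14.1 to 9.03 and 10.4 CPM. In a list of 15 these calls lie near the shares over all genes. When the likely doublets were left out 3 of the 15 were lower, *Hmox1*, *Chac1*, and *Mt1* (log2 -0.70, -0.61, and -0.80). *Hspb1*, a small heat shock protein gene, had 2840 and 3045 CPM in sham and 2919 and 2633 CPM in CCI. *Cdkn1a*, a cell-cycle inhibitor gene and target of p53, had 677 and 712 against 676 and 666 CPM. The *Sprr1a*- neurons of sham held 982 and 983 CPM of *Hspb1* and 127 and 116 CPM of *Cdkn1a*. Immediate early genes, which dissociation can switch on, gave 2 higher and 0 lower of 15 (1 lower at an unadjusted p under 0.05, and 0 by DESeq2): *Egr1* rose from 28.2 and 36.9 to 61.0 and 68.9 CPM, and *Btg2* from 28.0 and 36.6 to 47.3 and 46.7 CPM. *Fos* was at 51.7 and 60.5 CPM in sham and at 73.2 and 69.4 CPM in CCI, uncalled, and below the *Sprr1a*- neurons of every library.

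Channels, receptors, identity factors, and class markers leaned to lower levels in CCI, but this lean was smaller or turned when likely doublets were left out. Of 83 such genes tested, 25 were called lower and 7 higher, with a median log2 fold change of -0.35. Leaving out the likely doublets, 15 of 81 were lower and 14 higher, and with 2 times as many left out, a setting chosen after seeing the data, 7 of 79 were lower and 15 higher. The calls over all genes also moved, from 850 higher and 642 lower of 15361 to 933 and 453 of 14744 and to 644 and 286 of 14121. The likely doublets were 40.8% and 37.4% of the sham cells and 17.0% and 17.5% of the CCI cells. When only *Nts*-positive cells were summed, 26 of 82 were lower and 3 higher.

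Among sodium channel genes 2 of 10 fell and 1 rose. *Scn10a*, the nociceptor channel Nav1.8, had 65.7 and 50.6 CPM in sham and 16.2 and 19.6 CPM in CCI, 3.16-fold lower (log2 -1.66, SE 0.134, edgeR's adjusted p = 0.000153). *Sprr1a*- neurons held 195 to 227 CPM, so both kinds of *Sprr1a*+ neurons were far below them. *Scn11a*, the channel Nav1.9, had 54.3 and 35.9 CPM in sham and 9.45 and 13.4 CPM in CCI. The 2 differences narrowed without the likely doublets, to 29.7 and 22.9 against 11.7 and 13.5 CPM for *Scn10a* (log2 -1.03, edgeR's adjusted p = 0.000215) and to 27.8 and 18.0 against 6.75 and 8.31 CPM for *Scn11a*. With 2 times as many left out *Scn10a* was no longer called (log2 -0.33, adjusted p = 0.332), and leaving out Male-Sham or Female-Sham left *Scn11a* uncalled (adjusted p = 0.0953 and 0.0642). *Scn3a*, the embryonic channel Nav1.3 that returns after axotomy, rose from 4.74 and 5.92 to 10.1 and 10.7 CPM.

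Potassium channel genes gave 8 lower and 3 higher of 21. *Kcna2*, a delayed rectifier known to fall after nerve injury, had 26.1 and 26.3 CPM in sham against 13.9 and 12.9 CPM in CCI, but without the likely doublets it stood at 7.14 and 10.6 against 10.0 and 9.04 CPM. *Kcnc4* behaved in the same way (13.1 and 20.7 against 9.63 and 10.7 CPM, then 6.74 and 10.1 against 8.46 and 9.48 CPM). *Kcnip4*, which encodes a regulator of A-type channels, fell from 128 and 136 to 90.9 and 91.7 CPM and kept its call without them (log2 -0.59). *Kcnk3*, a leak channel of the tandem-pore family, *Kcnc1*, and *Kcnma1* rose, *Kcnk3* from 6.46 and 6.85 to 15.5 and 18.1 CPM. In *Nts*-positive cells alone *Kcnk3* had 4.62 and 5.42 against 5.89 and 6.43 CPM and was not called (log2 0.26, edgeR's adjusted p = 0.353), nor was *Kcnma1* (log2 0.49). The values of *Kcnk3* were 1.98 and 1.496 against 13.6 and 16.2 CPM with the likely doublets left out. In sham *Sprr1a*+ neurons *Kcnk3* was at 0.163 times its level in *Sprr1a*- neurons.

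Among markers of the non-peptidergic classes, 4 of 6 NP1 markers and 5 of 5 NP2 markers fell, and 0 in either list rose by edgeR, by DESeq2, or at an unadjusted p under 0.05. The NP1 markers were *Nts*, *Il31ra* (21.7 and 14.2 against 5.87 and 7.22 CPM), *Cysltr2* (10.8 and 7.37 against 2.59 and 2.65 CPM), and *Osmr* (37.9 and 23.2 against 16.9 and 18.0 CPM), receptors of itch signals apart from *Nts*. *Nts* and *Osmr* are also on the injury lists and are counted there among the genes called lower. *Nppb*, the natriuretic peptide gene of the class, had 86.8 and 40.3 CPM in sham and 11.6 and 9.49 CPM in CCI, uncalled at the spread of the sham libraries (edgeR's adjusted p = 0.0957). Of the NP2 markers *Lpar3*, a lysophosphatidic acid receptor gene, fell from 13.3 and 8.10 to 1.73 and 1.36 CPM, 6.58-fold, and *Mrgprd*, a receptor gene of mechanical nociceptors, from 8.61 and 3.11 to 1.49 and 1.09 CPM. *Plxnc1* and *Cd55* fell 1.45- and 1.99-fold. Without the likely doublets 5 of 6 NP1 and 3 of 5 NP2 markers were lower, and with 2 times as many left out 1 of 5 and 2 of 5, with 2 NP1 markers higher.

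**Figure D5:**
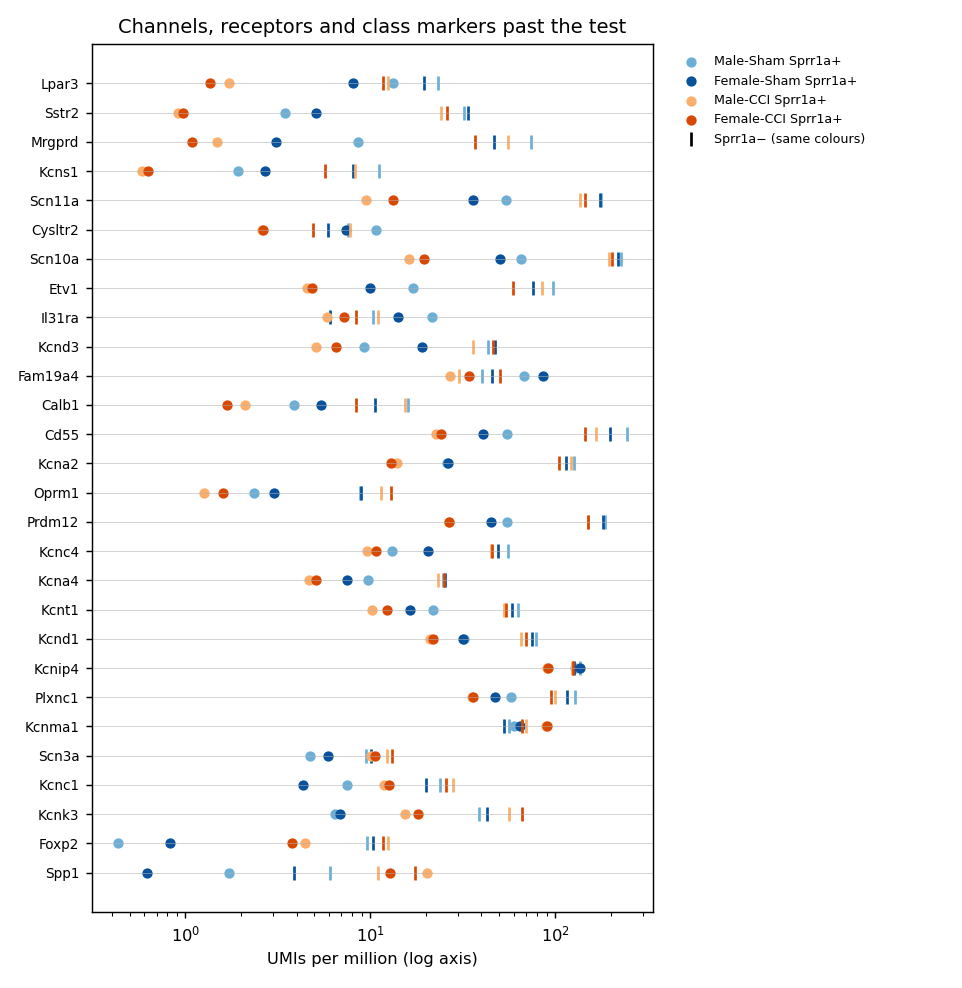
Channels, receptors, identity factors, and class markers outside the injury lists that passed the test, 28 genes, in CPM (log axis), as circles for the *Sprr1a*+ neurons and bars for the *Sprr1a*- neurons of each library. The 22 genes with CCI circles to the left of sham circles, such as *Lpar3*, *Scn10a*, and *Cd55*, are above the 6 with CCI to the right, from *Kcnma1* to *Spp1*, and for most genes the *Sprr1a*- bars lie to the right of all circles.

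Of the peptidergic markers 1 of 7, *Sstr2*, was called lower, from 3.44 and 5.09 to 0.913 and 0.977 CPM. *Sstr2* overlapped between surgeries without the likely doublets, at 0 and 1.496 CPM in sham and 0.330 and 0.473 CPM in CCI. Then 0 of 6 peptidergic markers were called lower and 0 higher, and with 2 times as many left out 0 and 4 of 6. *Calca*, the gene of the peptide CGRP, had 1523 and 866 CPM in the *Sprr1a*+ neurons of sham, 639.7 and 691 CPM in those of CCI, and 7955 to 8715 CPM in *Sprr1a*- neurons. The order turned without the likely doublets, to 183 and 288 CPM in sham and 461 and 415 CPM in CCI. *Nefm*, a neurofilament gene of large neurons, had 349.7 and 329.6 CPM in sham and 529.8 and 411 CPM in CCI, and 211 and 214 against 533 and 391 CPM without them. Of the 10 neurofilament markers *Spp1* was called higher and *Calb1* lower, at 5.40 CPM or less for *Calb1*. Leaving out the likely doublets gave 4 of 10 higher and 0 lower, as did leaving out 2 times as many. Of the 9 identity factors tested *Prdm12* and *Etv1* fell. *Runx1*, *Pou4f1*, and *Isl1* were not called, with *Isl1* at 73.6 and 82.3 against 76.0 and 74.8 CPM. Among the cold-sensing markers *Foxp2* was called higher (1 of 3), among the cLTMR markers *Fam19a4* lower (1 of 4), and of the NP3 markers 1 was tested, *Mrgpra3*, and not called. Of the 12 transduction channels and receptors 3 were lower, among them *Mrgprd* and *Oprm1*, the mu opioid receptor gene, and 1 was higher. Without the likely doublets 1 of 11 was lower and 3 higher, and with 2 times as many left out 0 and 2 of 11. *Mrgprd* (2.78 and 0.332 against 0.319 and 0.436 CPM) and *Oprm1* (0.793 and 1.66 against 0.990 and 1.16 CPM) overlapped between surgeries without the likely doublets.

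Beyond the lists, the 10 genes with the largest folds in each direction among called genes of at least 50 CPM in the higher group were named by rule. The higher ones were *Gal*, *Clmp*, *Gm8797*, *Lmo7*, *Inhbb*, *Neto1*, *Bach1*, *Mtus2*, *Mfap3l*, and *Serpinb1a*. *Clmp*, an adhesion molecule gene of tight junctions, rose from 12.1 and 13.5 to 64.1 and 63.5 CPM, 4.92-fold (log2 2.30, SE 0.0922, edgeR's adjusted p = 6.37e-07), and in sham was lower in *Sprr1a*+ than in *Sprr1a*- neurons (24.95 and 23.7 CPM). *Lmo7* rose from 49.95 and 42.5 to 164 and 163 CPM, *Neto1*, an auxiliary subunit gene of glutamate receptors, from 17.0 and 14.4 to 55.1 and 49.1 CPM, and *Bach1*, a repressor of antioxidant genes, from 26.5 and 33.1 to 76.9 and 73.4 CPM. *Gm8797*, from 12.5 and 13.6 to 59.9 and 51.9 CPM, moved likewise in *Sprr1a*- neurons (11.1 and 10.1 to 56.7 and 48.9 CPM).

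The lower ones were *Calcb*, *Nrn1*, *Scn10a*, *Hsbp1l1*, *Dnase1l3*, *Fam19a4*, *Acpp*, *Rarres1*, *Wfdc3*, and *Ppp1r1c*. *Calcb*, which encodes the second CGRP peptide, fell from 217 and 194 to 56.5 and 64.8 CPM, 3.37-fold (log2 -1.75, SE 0.0886, edgeR's adjusted p = 2.92e-06), and without the likely doublets from 134 and 133 to 43.8 and 47.2 CPM. *Nrn1*, the neuritin gene, fell from 222 and 151 to 50.9 and 59.2 CPM. *Acpp*, the acid phosphatase by which non-peptidergic neurons are stained, fell from 59.2 and 53.4 to 22.8 and 20.8 CPM. *Dnase1l3*, at 69.8 and 50.04 CPM in sham *Sprr1a*+ neurons, was 4.92 times its level in the *Sprr1a*- neurons of sham. *Wfdc3* and *Fam19a4* were also higher in *Sprr1a*+ neurons there, 38.3 and 1.79 times. In CCI *Dnase1l3* was lower, at 21.5 and 22.9 CPM.

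The difference between surgeries was also set against that of the *Sprr1a*- neurons of the same libraries in 1 model with an interaction term, an alternative chosen after seeing the data. Of 16848 genes, 308 had a difference higher in *Sprr1a*+ neurons (1.83%) and 452 a lower one (2.68%). *Gal* was among the first: its log2 difference was 2.55 in *Sprr1a*+ and 0.69 in *Sprr1a*- neurons, an interaction of 1.88 (edgeR's adjusted p = 0.00309). *Calcb* was among the second, with -1.75 in *Sprr1a*+ and -0.01 in *Sprr1a*- neurons (interaction -1.74, edgeR's adjusted p = 8.51e-06). Several injury genes had the larger difference in *Sprr1a*- neurons, from a low level: *Tgfbi* went from 0.120 and 0.185 to 2.39 and 2.27 CPM there and lay between 63.4 and 68.6 CPM in *Sprr1a*+ neurons, and *Ecel1* went from 2.14 and 2.79 to 15.5 and 17.5 CPM. With the likely doublets left out *Tgfbi* was called lower in CCI *Sprr1a*+ neurons, at 111 and 95.1 against 70.8 and 69.4 CPM (log2 -0.55), and with 2 times as many left out it was at 163 and 116 against 72.8 and 76.4 CPM (log2 -0.85). *Apoe*-high cells above the *Sprr1a* limit were 17.6% and 13.9% in CCI, and the part of free RNA in these low levels was not tested.

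Interferon-response and MHC class I genes are another list beside the injury program. Of 10 tested, 3 were called higher (5.53% of all genes were) and 0 lower (4.18% of all). DESeq2 called 5 higher and 0 lower, against 627 and 550 of all 15361 genes. At an unadjusted p under 0.05, 5 were higher and 1 lower. *Isg15*, a ubiquitin-like interferon target, rose from 2.15 and 1.97 to 13.4 and 17.7 CPM, 7.64-fold (log2 2.93, SE 0.246, edgeR's adjusted p = 6.02e-05), and *Ifit3* from 8.18 and 4.26 to 11.1 and 15.1 CPM. *Ifit1*, at 21.3 and 25.6 against 88.7 and 159 CPM, was not called (edgeR's adjusted p = 0.115). The MHC class I genes *H2-K1* and *H2-D1* were not higher, with *H2-D1* at 214 and 232 against 168 and 196 CPM. *Sprr1a*- neurons had 5.64, 6.90, 14.4, and 16.4 CPM of *Isg15*.

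Markers of other cell types were present at low levels in the *Sprr1a*+ neurons. The 7 satellite glial markers summed to 449.6 and 568 CPM in sham and 546 and 549.8 CPM in CCI, and edgeR and DESeq2 called 0 of 7 (3 at an unadjusted p under 0.05). Schwann cell markers summed to 543, 608, 516, and 523 CPM, with 0 of 6 called by both tools (1 at an unadjusted p under 0.05). The 9 immune markers summed to 42.2, 41.9, 63.8, and 54.4 CPM in *Sprr1a*+ neurons and to 4.13 to 10.3 CPM in *Sprr1a*- neurons, with 0 of 8 called by both tools and 0 at an unadjusted p under 0.05. *Cx3cr1* (15.1, 38.8, 49.9, and 38.0 CPM) was most of that sum except in Male-Sham. *Ptprc*, the defining leukocyte gene, had 0, 0, 2, and 6 UMIs. Outside the likely doublets *Cd74* had 23.8, 0, 0.854, and 2.38 CPM and *C1qa* 6.35, 0, 0.956, and 1.15 CPM in *Sprr1a*+ neurons. The 10 fibroblast and vessel markers summed to 8.61, 15.9, 15.1, and 19.3 CPM, with *Flt1* and *Col1a2* called higher of 9, at 5.50 CPM or less. The part of these cells and of the doublets in the results was not tested.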

How the data were processed

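Each of the 4 libraries was a 10x Genomics 3' library of sorted cells. The deposited matrices hold raw UMI counts per gene and called cell, which the authors made with Cell Ranger on mm10 (2.1.1 per the labels, 3.0.2 in the matrix header). They hold 31053 genes and were neither normalized nor filtered further. No reads were aligned here.

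UMI counts were summed over the *Sprr1a*+ neurons of each library. edgeR 4.0.16 (R 4.3.3) compared 2 CCI with 2 sham sums by its robust quasi-likelihood test after filterByExpr and TMM scaling, and the Benjamini-Hochberg adjustment covered all genes. *Sprr1a*, *Apoe*, and mitochondrially encoded genes, which chose the cells, stayed in the fit and out of the counts. CPM is the gene's UMIs per 1000000 UMIs of the sum. Shares of cells were taken after thinning each cell at random to 5000 UMIs where stated. Doublets were scored with Scrublet in scanpy 1.11.5 (expected rate 0.1), and the highest scores were taken in the number the study removed. The fits were tested on simulated data.

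The members and lists were chosen with earlier results of these data known. Any gene of the lists could be named, except 3 that are not reported here and stay in the list counts, and beyond them the 10 genes with the largest folds in each direction among called genes with a mean of at least 50 CPM in the higher group and no overlap between surgeries. Alternatives were DESeq2 1.42.0, other filters, limits, and size factors, sex as a block, and leaving out each library. The interaction, the *Nts*-positive cells, and 2 times the doublets were added after seeing the data. Cells were handled in Python 3.11.15 with pandas 2.3.3, scipy 1.17.1 and numpy 2.4.6, and plots were drawn in matplotlib 3.10.9. Replicates were libraries of pooled animals of different sex, so p-values measure the spread between these pools.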

Additional observations from a re-analysis of the deposited data

Results flagged for a closer look

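The difference between CCI and sham was tested against that of the *Sprr1a*- neurons of the same libraries with an interaction term, and 308 genes had it higher and 452 lower in *Sprr1a*+ neurons (edgeR's quasi-likelihood test, Benjamini-Hochberg adjusted p under 0.05 and an absolute log2 value over 0.5). Among these were 34 of the 73 named genes that were called between surgeries, and the values in parentheses are the log2 difference of the 2 differences. Over all 16848 genes the shares were 1.83% higher and 2.68% lower. The 73 were kept for their call in the same *Sprr1a*+ sums, so their larger share follows in part from that choice and is not a separate result. Both kinds of neurons of a library share its animals, its free RNA, and its depth.

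Of the injury genes the difference was higher in *Sprr1a*+ neurons for *Gal* (1.88), *Klf6* (0.51), and *Cebpd* (0.88), and lower for *Cck* (-2.57), *Plaur* (-1.99), *Wfdc3* (-2.66), and *Sema6a* (-1.53). *Plaur* and *Wfdc3* were lower in CCI in *Sprr1a*+ neurons and higher in *Sprr1a*- neurons, where the levels were low, while *Sema6a* was higher in both.

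Of channels, receptors, and an identity factor the difference was lower for *Scn10a* (-1.47), *Kcna2* (-0.88), *Kcna4* (-0.67), *Kcnd3* (-1.23), *Kcns1* (-1.59), *Kcnt1* (-0.51), *Oprm1* (-1.39), *Mrgprd* (-1.63), and *Prdm12* (-0.57), and higher for *Scn3a* (0.57), *Kcnc1* (0.87), and *Kcnk3* (0.79). Of class markers it was lower for *Lpar3* (-1.88), *Sstr2* (-1.82), *Il31ra* (-1.70), and *Cysltr2* (-1.63), and higher for *Foxp2* (2.33). *Lpar3* and *Scn10a* stood at lower levels in *Sprr1a*+ than in *Sprr1a*- neurons of every library.

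Other genes with the higher difference were the immediate early genes *Egr1* (1.26) and *Btg2* (0.56), the interferon target *Isg15* (1.70), and, of the genes chosen by fold, *Clmp* (1.81) and *Mfap3l* (0.88). Among the genes chosen by fold it was lower for *Calcb* (-1.74), *Hsbp1l1* (-1.04), *Acpp* (-1.03), *Ppp1r1c* (-0.95), and *Rarres1* (-0.81). The likely doublets, 40.8% and 37.4% of the sham *Sprr1a*+ neurons against 17.0% and 17.5% of those of CCI, were part of these sums, and their part in the interaction was not tested.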

How the results depend on the processing

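The counts of 850 genes higher and 642 lower in CCI kept within 1.5 times under no filter on low counts, other size factors, DESeq2, stricter limits on depth, genes, mitochondrial UMIs, *Apoe*, and *Atf3*, shared barcodes left out, and at least 3 *Sprr1a* UMIs. Leaving out 1 library at a time gave 629 to 935 genes higher and 458 to 720 lower. Sex as a replicate block gave 928 and 671, and 830 and 615 of the genes called without it were shared. Deviations of same-sex libraries correlated at r = 0.0995 over 7352 genes, so sex was not taken to pair the samples. With the block *Nrn1*, *Scn11a*, and *Hmox1* were no longer called, and the other 70 named genes kept their calls.

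Cells with normalized *Sprr1a* from 1 to 2 gave 446 genes higher and 368 lower, from 12 and 36 sham cells. In 2 settings chosen after seeing the data, 286 were lower with 2 times as many doublets left out, and 308 were higher as a difference from the *Sprr1a*- neurons. DESeq2 called 627 higher and 550 lower. Leaving out the likely doublets gave 933 and 453, so the share of higher calls moved from 57.0% to 67.3%, and 590 and 316 of the genes called with them were shared. The interaction moved that share to 40.5%, and with 2 times as many doublets left out it was 69.2%. The cause was not tested in any of these settings.

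Of the 73 named genes that were called, 8 were called in all 21 settings, namely *Acpp*, *Clmp*, *Egr1*, *Isg15*, *Lpar3*, *Mfap3l*, *Plaur*, and *Scn3a*. Some log2 fold changes changed sign. Without the likely doublets this was *Calb1* (0.44). With 2 times as many left out they were *Calb1* (0.25), *Cck* (2.29), *Etv1* (0.13), *Il31ra* (2.50), *Kcns1* (0.35), *Kcnt1* (0.40), *Oprm1* (0.66), *Osmr* (0.26), and *Prdm12* (0.15). In cells with *Sprr1a* from 1 to 2 they were *Calb1* (3.35), *Cck* (0.50), *Col1a2* (-0.22), *Crh* (1.09), and *Kcna4* (0.00086). As a difference from the *Sprr1a*- neurons they were *Cryba2* (-2.14), *Csf1* (-0.34), *Fgf3* (-2.47), *Gap43* (-0.21), *Gm8797* (-0.23), *Ifit3* (-0.27), *Inhbb* (-1.02), *Itga7* (-0.29), *Sema6a* (-1.53), *Serpinb1a* (-0.70), *Sox11* (-0.43), and *Tubb6* (-0.85), where a negative value means a smaller rise than in the *Sprr1a*- neurons.

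Without Male-Sham 9 of the 73 were no longer called, among them *Btg2* (log2 0.35), *Cck* (-1.34), *Cryba2* (0.35), *Kcnma1* (0.47), *Osmr* (-0.42), and *Plxnc1* (-0.43). Without Female-Sham 14 were not, among them *Adm* (1.64), *Calb1* (-1.004), *Fam19a4* (-1.11), *Hmox1* (-0.42), *Ifit3* (0.71), *Kcnc4* (-0.34), *Kcnip4* (-0.46), and *Oprm1* (-0.69). Without Male-CCI 9 were not, among them *Nrn1* (-1.63) and *Wfdc3* (-1.34), and without Female-CCI 6 were not, among them *Cebpd* (0.76). In these fits the lone library of a surgery was assumed to vary like the others. A gene without UMIs in a sham library lies below 0.646 CPM in Male-Sham and 0.311 CPM in Female-Sham (3 UMIs of the sum), against 0.0285 and 0.0305 CPM in CCI, so low levels were less detectable in sham. The share of neurons called *Sprr1a*+ in sham, 1.95% and 3.75%, was 1.36% and 2.82% without the likely doublets.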

Other observations

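A few genes outside the lists, chosen after their values were seen, stood apart between the *Sprr1a*+ neurons of sham and CCI. *Ifi202b*, an interferon-inducible gene of the cluster that holds DNA sensors, had 0 UMIs in the *Sprr1a*+ and the *Sprr1a*- neurons of both sham libraries. In CCI it stood at 28.3 and 32.6 CPM in *Sprr1a*+ neurons and at 2.23 and 2.72 CPM in *Sprr1a*- neurons. It was at least 145-fold higher in CCI than in sham *Sprr1a*+ neurons, taken against 3 UMIs over the sham group (0.210 CPM). Members of this gene cluster are near copies of each other, so reads could be split among them. Litter and surgery cannot be told apart in this design, so whether the surgery gave this difference was not tested.

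*Phox2a*, a transcription factor gene of autonomic neurons, was at 0.646 and 0.623 CPM in the sham *Sprr1a*+ neurons (3 and 6 UMIs) and at 10.3 and 10.5 CPM in those of CCI. *Prdm1*, a repressor gene, stood at 0.861 and 0.623 against 5.44 and 5.36 CPM, *Arg2*, an arginase gene, at 0.861 and 0.519 against 8.90 and 7.76 CPM, and *Egfr*, the epidermal growth factor receptor gene, at 0.215 and 0 against 4.43 and 3.91 CPM. *Ly6g* had 3.01 and 2.91 CPM in sham and 19.6 and 27.0 CPM in CCI. Each of these 5 genes was called higher in CCI by edgeR. *Arg2* was lower in the *Sprr1a*+ than in the *Sprr1a*- neurons of both sham libraries (1.56 and 1.41 CPM in the latter). In the other direction *Chrnb4* and *Chrm2*, genes of acetylcholine receptors, stood at 1.94 and 0.519 and at 2.80 and 0.831 CPM in sham and at 0.0285 and 0.0610 and at 0.200 and 0.265 CPM in CCI. All of these sham values rest on few UMIs.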
